A study of Homo sapiens with 4 samples.

Results

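The genes described here encode the coats, small GTPases, cargo receptors, SNAREs and tethers that carry proteins between the endoplasmic reticulum (ER) and the Golgi. They were chosen as a named list by function, under a rule that uses no measured value. Earlier results of these data were known when they were chosen. All 37 were found by symbol among the 32479 genes of the table. They comprise 11 genes of the COPII coat, 10 of the COPI coat and its ARF GTPases, 9 cargo receptors, 4 SNAREs and 3 tethers. RNA was sequenced from HepG2, a human hepatoblastoma-derived line, and from PLC/PRF/5, a hepatoma line with hepatitis B virus DNA in its genome. In each line cells given 20 uM PF-429242 for 24 h were compared with untreated control cells at 24 h. PF-429242 inhibits site-1 protease, a Golgi enzyme that cuts the transcription factor precursors SREBP and ATF6. The labels give both lines as WT, and each of the 4 groups held 1 library. No contrast within a line therefore had a replicate check, and none carries a p-value.

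COPII-coated vesicles leave the ER at exit sites and carry newly made secretory and membrane proteins forward, while COPI-coated vesicles return escaped ER proteins and receptors from the Golgi. Hepatocytes export much of the plasma's protein by this route. COPII vesicles also take SREBP, with its escort SCAP, and ATF6 to the Golgi, where site-1 protease resides. ATF6 and XBP1, transcription factors of the unfolded protein response, act on many genes of the secretory pathway.

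The libraries held 16722204 to 21387301 fragments, and 206 to 13916 of these fell on each of the 37 genes. The 7 hepatocyte markers examined were present in every library, summing to 5633 FPKM (fragments per kilobase, relative to library size) in treated HepG2 and 6460 FPKM in its control. In PLC/PRF/5 they summed to 2858 FPKM with treatment and 2579 FPKM in the control. Fibroblast markers summed to 0.400 FPKM or less per library and endothelial markers to 1.37 FPKM or less, and of the blood cell markers only LYZ reached 1 FPKM, at 179 to 504 FPKM. The response of a sterol gene marked the treated libraries, with the cholesterol synthesis gene HMGCS1 at 5.18 FPKM in treated and 38.0 FPKM in control HepG2, and at 8.29 and 28.1 FPKM in treated and control PLC/PRF/5. Mitochondrial genes held 27.6% of fragments in treated HepG2 and 16.6% in its control, and 28.2% in treated PLC/PRF/5 and 21.3% in its control. The treated PLC/PRF/5 library also stood apart in mitochondrial ribosomal RNA, which made up 0.447% of its fragments and 2.59% to 4.90% in the other libraries, and in 8 RRP genes of ribosomal RNA processing, which together had 811 fragments there and 6271 to 9986 in the others.

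All 37 genes were at 1 FPKM or more in all 4 libraries, and most were somewhat lower with PF-429242. Summed over the list, they reached 927 FPKM in treated HepG2 and 1145 FPKM in its control, and 998 FPKM in treated PLC/PRF/5 and 1189 FPKM in its control. Changes are given as log2 ratios of (FPKM + 1), treated over control. In HepG2 all 37 were below 0, with a median of -0.35, and in PLC/PRF/5 34 were, with a median of -0.19. A ratio below 0 was common in these libraries, at 82.4% of 12347 measured genes in HepG2 and 70.9% of 13144 in PLC/PRF/5, and the medians of all measured genes were -0.17 and -0.13. In both lines 34 of the 37 were below 0, against 65.0% of the 9993 genes at 1 FPKM in all libraries. Below the median of all genes, which splits them evenly, lay 27 of the 37 in HepG2 and 29 in PLC/PRF/5. In bulk RNA, less of a transcript in every cell and fewer cells that make it cannot be told apart.

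The differences were small. In HepG2 SAR1A alone was lower by 1.5-fold or more on this scale, which is 1 of 37 against 5.54% of all measured genes. In PLC/PRF/5 0 of 37 were, against 5.07%. Without the added 1 FPKM TMED3 also passed in HepG2, with an FPKM ratio of 0.639. None was higher by 1.5-fold, against 2.33% of genes in HepG2 and 4.25% in PLC/PRF/5. With a smaller step of 0.32 on the log2 scale, 20 were lower in HepG2 (background 21.5%) and 10 in PLC/PRF/5 (19.7%). Lower than the median of all genes by that step were 5 in HepG2 (8.15%) and 0 in PLC/PRF/5 (9.47%). The highest of the 2 treated levels lay under the lowest of the 2 control levels for 20 of the 37, or 54.1%, against 22.6% of those 9993 genes. Those 20 included all 3 tethers, 3 of 4 SNAREs, 6 of 11 COPII genes, 6 of 10 COPI genes and 2 of 9 cargo receptors. This split also depends on how near the 2 control levels lie, so it does not rank the roles by response. All 9 cargo receptors were below 0 in both lines. TMED2 is not among the 20, since treated PLC/PRF/5 stood at 94.5 FPKM and control HepG2 at 82.2 FPKM.

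**Figure D1:**
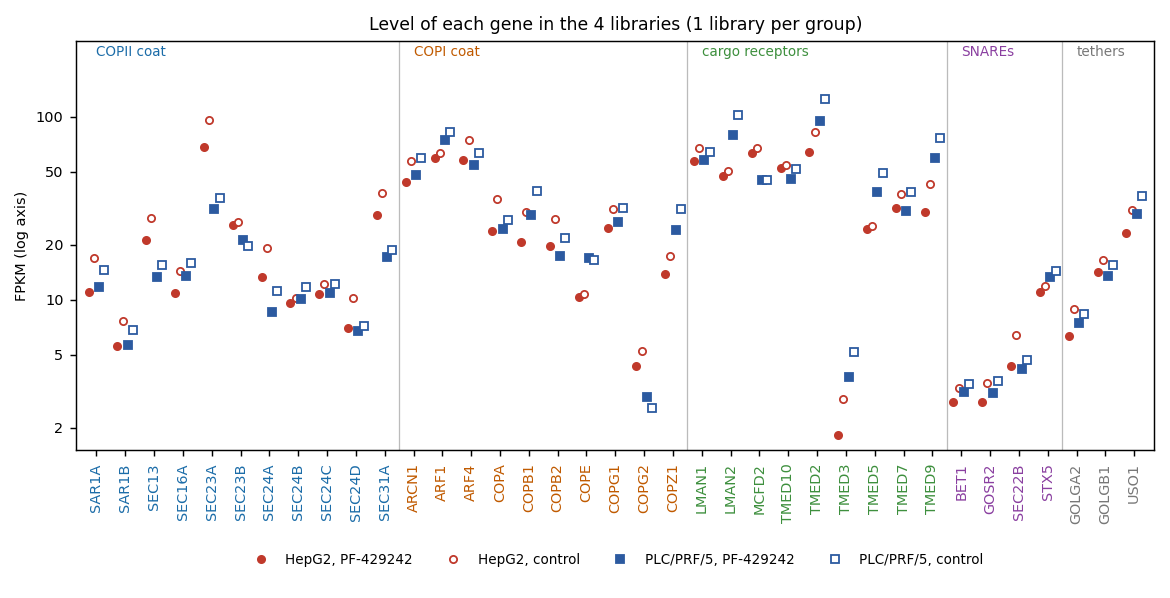
Level of each of the 37 genes in FPKM (log axis) in the 4 libraries, grouped by role. Filled symbols are PF-429242 and open symbols control, circles HepG2 and squares PLC/PRF/5. Each symbol is 1 library. Filled symbols sit a little under the open ones of the same line for nearly all genes, and TMED3, COPG2, BET1, GOSR2 and SEC22B lie under 7 FPKM in every library.

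One fit in limma over all 4 libraries, with the cell lines as the only replicates of the treatment and 1 residual degree of freedom, called 0 of the 37 at an adjusted p under 0.05 and 0 of all 12838 genes (0.0%). The smallest adjusted p among the 37, from limma with Benjamini-Hochberg adjustment over all genes, was 0.193. At an unadjusted p under 0.05 the fit held 18 of the 37, all lower, against 17.5% of all genes lower and 1.9% higher. They were 6 COPII genes, 7 COPI genes, 4 cargo receptors, the tether USO1 and no SNARE. By p-value the first was COPB1, with a shared log2 change of -0.47 ± 0.07 (SE), followed by TMED9 at -0.43 ± 0.08 and TMED2 at -0.38 ± 0.07. These SEs are moderated by limma over all genes and are not the spread of the gene alone. All 3 were lower in 2 of 2 lines, as were 34 of the 37 and 65.0% of the 9993 genes at 1 FPKM in all libraries. Ranking by this p-value itself favours genes whose ratios are alike in the lines. The count at an unadjusted p under 0.05 depends on the scaling, the filter and the fit. The count at an adjusted p under 0.05 depends on the scaling too. On the TPM scale it was 35 of the 37, all lower, with 6026 of 12760 genes called, and it was 0 in each of the following. With median-of-ratios scaling 7 of the 37 had an unadjusted p under 0.05, all lower, against 5.37% of all genes lower. With quantile normalization 6 had, 5 of them lower, against 4.82%. With limma-voom on the fragments 24 had, all lower, against 22.7%. Without the cell line block 0 had, against 0.748%. Among genes at 5 FPKM or more in at least 2 libraries, 17 of 32 had, all lower, against 25.3%.

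The scale decides how many genes read as lower. Other scalings moved the median of all genes, from -0.17 in HepG2 on the deposited scale to -0.45 on the TPM scale and 0.005 with median-of-ratios scaling. With median-of-ratios scaling 26 of the 37 stayed below 0 in HepG2 and 30 in PLC/PRF/5. With totals over nuclear genes, which leave the mitochondrial fragments out, 27 in HepG2 and 30 in PLC/PRF/5 did, and the medians of the 37 were -0.15 in HepG2 and -0.071 in PLC/PRF/5. In HepG2 the ratios of ARF1, COPE, LMAN2, MCFD2, SEC23B, SEC24B, SEC24C, STX5, TMED5 and TMED10 were above 0 under all 3 centring scalings tried, which are median of ratios, nuclear totals and quantile normalization. In PLC/PRF/5 MCFD2, SEC24D, SEC31A and STX5 turned above 0 under all 3.

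**Figure D2:**
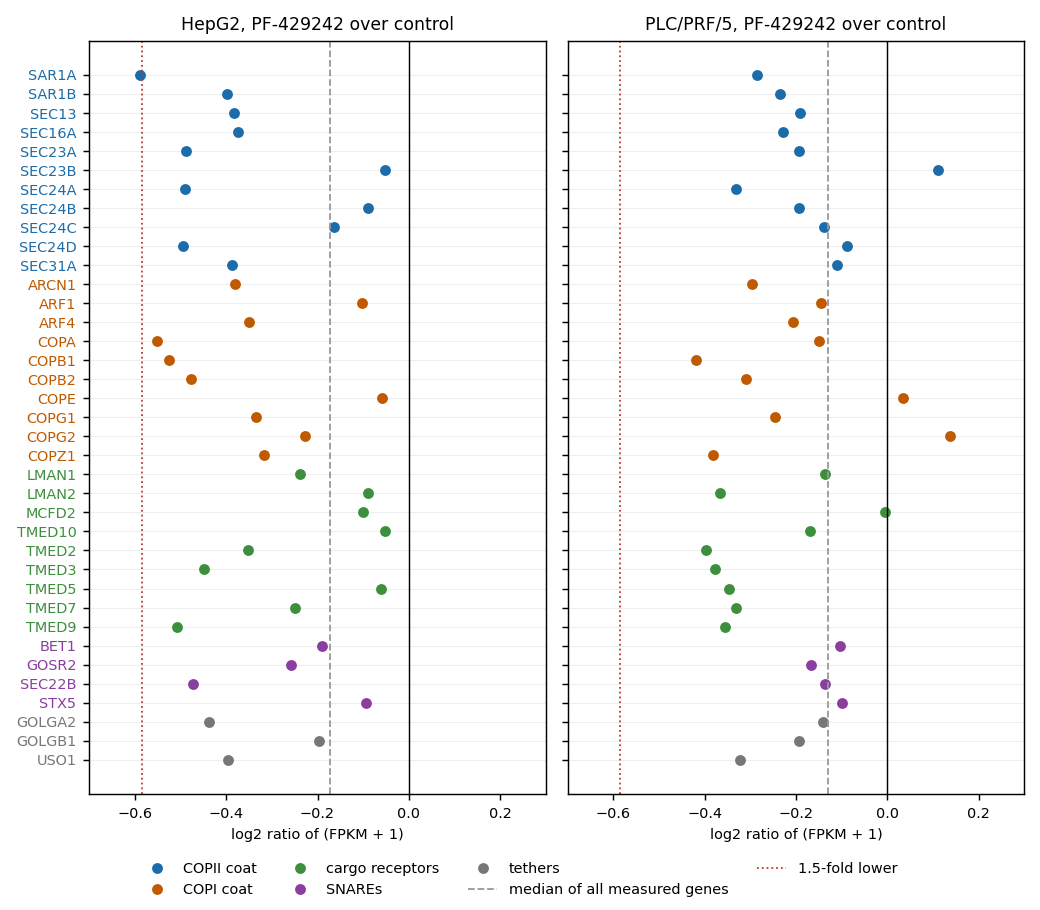
The log2 ratio of (FPKM + 1), PF-429242 over control, of each gene in HepG2 (left) and PLC/PRF/5 (right), coloured by role. The dashed line is the median of all measured genes (-0.17 and -0.13) and the dotted line marks 1.5-fold lower. Each point is 1 treated over 1 control library. In HepG2 SAR1A alone reaches the dotted line, and in PLC/PRF/5 SEC23B, COPE and COPG2 lie above 0.

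Promoters were read because many of these genes were lower together. RefSeq promoters on build GRCh38.p14 (250 bases before to 50 after the start) were found for 33 of the 37, the others being TMED9, USO1, ARF4 and SEC24D. Below, 250 bases before and 10 from the start are printed for 4 genes, chosen after their values were seen. SEC23A, SEC24A and COPB1 had similar log2 ratios in HepG2, from -0.49 to -0.52, and SEC23B had -0.05. SEC23A (chr14:39103226-39103485, minus strand), SEC24A (chr5:134648535-134648794, plus strand) and COPB1 (chr11:14499802-14500061, minus strand) held the core of the unfolded protein response element, TGACGTG. SEC23B (chr20:18507298-18507557, plus strand), the close paralog of SEC23A, did not hold it here or at its other RefSeq start. These 4 do not stand for the list. ARF1, COPE and STX5 also held the core, with HepG2 log2 ratios of -0.10, -0.06 and -0.09, and SAR1A at -0.59 did not. Capitals mark the core on either strand, which reads CACGTCA in COPB1.
SEC23A: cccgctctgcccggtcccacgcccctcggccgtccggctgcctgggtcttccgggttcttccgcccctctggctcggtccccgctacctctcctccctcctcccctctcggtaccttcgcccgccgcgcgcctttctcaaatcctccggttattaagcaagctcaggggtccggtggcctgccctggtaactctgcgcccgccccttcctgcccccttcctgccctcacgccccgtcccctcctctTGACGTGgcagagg
SEC23B: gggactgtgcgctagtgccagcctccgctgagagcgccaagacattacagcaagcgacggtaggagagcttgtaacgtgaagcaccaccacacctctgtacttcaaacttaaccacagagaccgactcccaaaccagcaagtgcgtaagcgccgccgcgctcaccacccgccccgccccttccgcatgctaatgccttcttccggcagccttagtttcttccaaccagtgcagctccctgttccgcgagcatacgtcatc
SEC24A: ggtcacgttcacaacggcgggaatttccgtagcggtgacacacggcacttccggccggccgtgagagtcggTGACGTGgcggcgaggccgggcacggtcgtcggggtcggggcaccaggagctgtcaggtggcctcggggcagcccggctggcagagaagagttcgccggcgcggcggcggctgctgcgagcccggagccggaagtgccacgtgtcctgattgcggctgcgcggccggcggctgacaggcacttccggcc
COPB1: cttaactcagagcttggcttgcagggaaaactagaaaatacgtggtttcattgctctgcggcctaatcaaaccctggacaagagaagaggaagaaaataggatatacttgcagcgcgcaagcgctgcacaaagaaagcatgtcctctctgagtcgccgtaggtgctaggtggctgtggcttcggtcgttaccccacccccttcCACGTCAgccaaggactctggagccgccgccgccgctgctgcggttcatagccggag

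The core lies at bases 247 to 253 of the SEC23A stretch, across the transcription start, at bases 72 to 78 in SEC24A and at bases 204 to 210 in COPB1. The 33 genes had 45 promoter entries, and a gene was counted if any of its starts had the core. By this count 10 held it (30.3%), which are ARF1, COPA, COPB1, COPB2, COPE, SEC13, SEC16A, SEC23A, SEC24A and STX5. ARF1 and SEC16A held it at only some of their starts. Counted the same way, the share over all genes with a promoter was 2.40% of 27305, and among genes measured in HepG2 it was 3.53% of 8266. No cargo receptor or tether had the core in this window. The full ER stress response element, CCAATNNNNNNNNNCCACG, was in none of the 33 and in 0.0916% of all genes. Its CCACG part was in 30 (90.9%), against 42.1% of all genes and 57.4% of those measured in HepG2, and a core followed by G contains this part on the other strand. Its CCAAT part was in 17 (51.5%), against 39.7% of all genes. The cyclic AMP response element TGACGTCA was in none, against 2.25% of all genes. The median GC content was 66.0% over these promoters, 64.7% over those of measured genes and 58.7% over all. These are matches of letters on both strands and were not read as binding sites.

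In treated HepG2 the 10 genes with the core had a median log2 ratio of -0.43 and the 23 without it -0.25, with ranges of -0.55 to -0.06 and -0.59 to -0.05 that overlap almost wholly. ARF1, COPE and STX5 held the core and lay above the median of all genes in HepG2. SAR1A had the lowest log2 ratio of the list in HepG2, at -0.59, and no core in its promoter. In PLC/PRF/5 both medians were -0.19. Over all 292 measured genes with the core the HepG2 median was -0.18, and over those without it -0.18 as well.

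**Figure D3:**
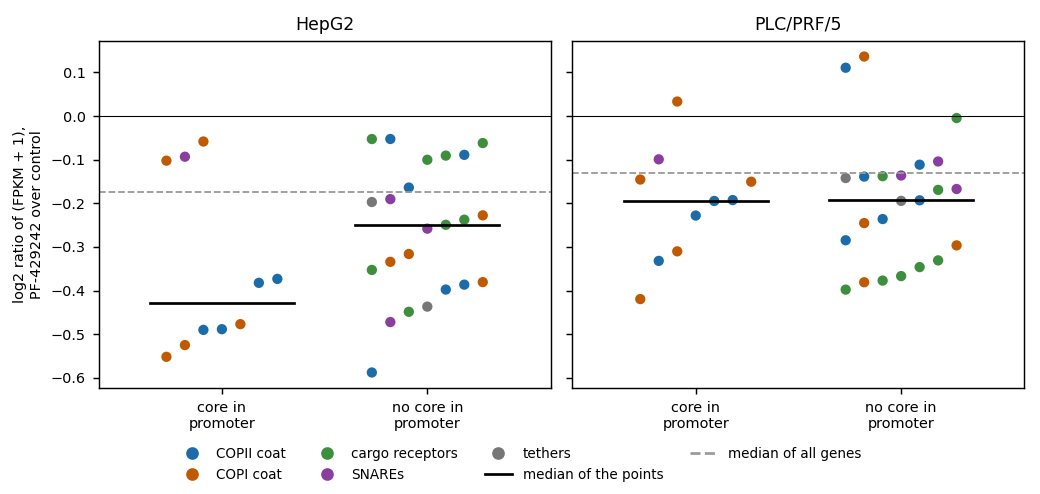
The log2 ratio of (FPKM + 1), PF-429242 over control, of the 33 genes with a promoter entry, split by whether any promoter entry of the gene holds the core TGACGTG on either strand, in HepG2 (left) and PLC/PRF/5 (right). Points are genes coloured by role, bars are medians and the dashed line is the median of all measured genes. The HepG2 medians are -0.43 and -0.25, with points of both kinds near -0.06, and the PLC/PRF/5 medians are both -0.19.

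In the COPII coat 11 of 11 genes were below 0 in HepG2, with a median of -0.39, and 10 of 11 in PLC/PRF/5, with a median of -0.19. SAR1A and SAR1B encode the GTPases that start the coat. SAR1A (chromosome 10, 70147289 to 70170523, GRCh38) stood at 11.0 FPKM in treated and 17.0 FPKM in control HepG2, and at 11.7 and 14.5 FPKM in treated and control PLC/PRF/5. Both treated libraries were below both controls, as for 22.6% of the 9993 genes at 1 FPKM in all libraries. The FPKM ratio was 0.646 in HepG2 (95% counting interval 0.604 to 0.691) and 0.809 in PLC/PRF/5 (0.755 to 0.866). Such intervals hold counting error alone and say how far apart these libraries are. SAR1B, whose loss in humans causes chylomicron retention disease, was at 5.56 and 7.64 FPKM in treated and control HepG2 and at 5.68 and 6.86 FPKM in treated and control PLC/PRF/5. The genome holds pseudogenes named for 10 of the 37 genes, so some reads of those genes may be shared. Among them SAR1A has 4, ARF4 has 4 and GOLGA2 has 9. Of SAR1B's exon bases 3.51% overlap SEC24A on the other strand.

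SEC23A and SEC23B encode the inner coat subunit that activates the GTPase of SAR1. SEC23A (chromosome 14, 39031919 to 39109646) was at 68.2 FPKM in treated and 96.1 FPKM in control HepG2, where it was the highest of the 37, and at 31.2 and 35.9 FPKM in treated and control PLC/PRF/5. Its ratio was 0.710 in HepG2 (0.693 to 0.727) and 0.870 in PLC/PRF/5 (0.838 to 0.904). SEC23B, mutated in a human congenital dyserythropoietic anaemia, was at 25.6 and 26.6 FPKM in treated and control HepG2 and at 21.3 and 19.7 FPKM in treated and control PLC/PRF/5. The HepG2 interval of its ratio included 1 (0.906 to 1.02), and in PLC/PRF/5 SEC23B was the only gene of the 37 whose interval lay above 1 (1.01 to 1.16). The share of SEC23A in the pair's FPKM was therefore lower in both treated libraries, at 72.7% against 78.3% in HepG2 and 59.4% against 64.6% in PLC/PRF/5. In mouse chondrocytes SEC23A is a known target of CREB3L2, which site-1 protease also cuts.

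The 4 SEC24 proteins choose cargo, and in HepG2 SEC24A and SEC24D had lower ratios than SEC24B and SEC24C. SEC24A was at 13.3 FPKM in treated and 19.1 FPKM in control HepG2, and at 8.61 and 11.1 FPKM in treated and control PLC/PRF/5, with ratios of 0.697 (0.656 to 0.740) and 0.776 (0.718 to 0.838). SEC24D (chromosome 4, 118722823 to 118838683) was at 6.98 and 10.3 FPKM in treated and control HepG2, a ratio of 0.681 (0.634 to 0.731), but at 6.71 and 7.20 FPKM in treated and control PLC/PRF/5, where the interval of 0.862 to 1.01 included 1. SEC24B was at 9.59 and 10.3 FPKM in treated and control HepG2 and at 10.1 and 11.7 FPKM in treated and control PLC/PRF/5. SEC24C was at 10.7 and 12.1 FPKM in treated and control HepG2 and at 10.9 and 12.1 FPKM in treated and control PLC/PRF/5. SEC24A made up 32.8% of the summed SEC24 FPKM in treated HepG2 and 37.0% in its control, and 23.7% in treated PLC/PRF/5 and 26.3% in its control. An opposite-strand gene overlaps 42.9% of SEC24C's exon bases, and how strand was treated in counting is not known here.

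SEC13 and SEC31A form the outer cage, and SEC16A marks the exit site. SEC13 was at 21.1 and 27.8 FPKM in treated and control HepG2 and at 13.4 and 15.4 FPKM in treated and control PLC/PRF/5. SEC31A was at 29.03 and 38.2 FPKM in treated and control HepG2 and at 17.2 and 18.6 FPKM in treated and control PLC/PRF/5. For both cage genes the HepG2 control was higher than the PLC/PRF/5 control by 1.5-fold or more, against 19.8% of all measured genes. SEC16A was at 10.9 and 14.4 FPKM in treated and control HepG2 and at 13.4 and 15.9 FPKM in treated and control PLC/PRF/5. The HepG2 ratios were 0.759 for SEC13, 0.759 for SEC31A and 0.756 for SEC16A, and the PLC/PRF/5 ratios were 0.867, 0.922 and 0.845 for the same genes.

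**Figure D4:**
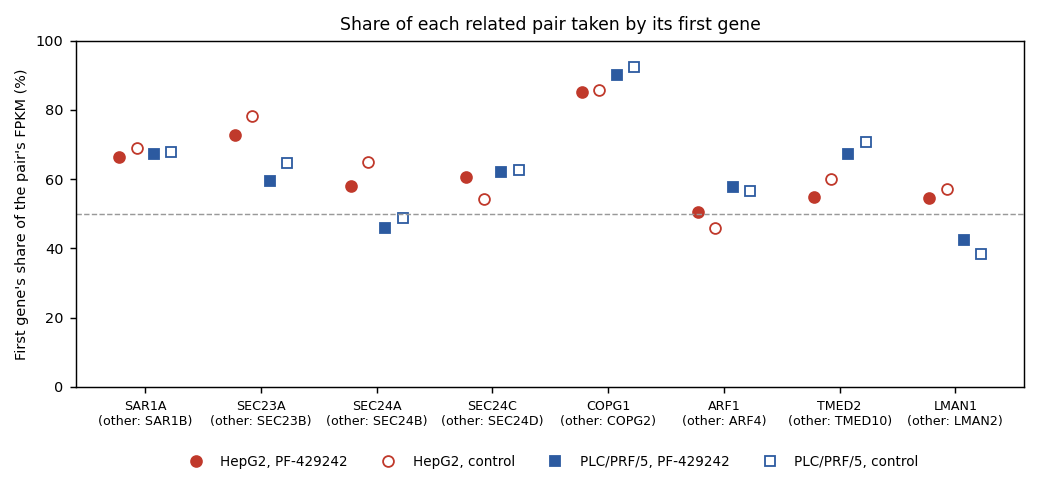
Share of each related pair's summed FPKM taken by the first-named gene, in percent, in the 4 libraries. Filled symbols are PF-429242 and open symbols control, circles HepG2 and squares PLC/PRF/5, with 1 library per symbol and a dashed line at equal shares. SAR1A, SEC23A, SEC24A, COPG1 and TMED2 take less of their pair in the treated library of each line, and ARF1 takes more. LMAN1 takes more than LMAN2 in HepG2 and less in PLC/PRF/5.

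In the COPI coat 10 of 10 genes were below 0 in HepG2, with a median of -0.34, and 8 of 10 in PLC/PRF/5, with a median of -0.23. In HepG2 COPA, COPB1 and COPB2 had the lowest ratios of these, and COPE differed little from its control in either line. COPA (chromosome 1, 160288686 to 160343400), the alpha subunit, was at 23.8 FPKM in treated and 35.3 FPKM in control HepG2, and at 24.4 and 27.2 FPKM in treated and control PLC/PRF/5. Its ratio was 0.673 in HepG2 (0.645 to 0.703) and 0.897 in PLC/PRF/5 (0.857 to 0.939). COPB1 (chromosome 11, 14443440 to 14500027), the beta subunit, was at 20.6 and 30.1 FPKM in treated and control HepG2 and at 29.1 and 39.3 FPKM in treated and control PLC/PRF/5. Ratios of 0.685 (0.647 to 0.726) and 0.741 (0.706 to 0.779) put COPB1 among the 6 largest changes of the list in both lines. COPB2, the beta prime subunit, was at 19.6 and 27.7 FPKM in treated and control HepG2 and at 17.3 and 21.7 FPKM in treated and control PLC/PRF/5. COPE, the epsilon subunit, was at 10.3 and 10.8 FPKM in treated and control HepG2 and at 16.9 and 16.5 FPKM in treated and control PLC/PRF/5, and both its intervals included 1 (0.849 to 1.08 and 0.934 to 1.12).

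COPG1 and COPG2 are alternative gamma subunits. COPG1 was at 24.7 and 31.4 FPKM in treated and control HepG2 and at 26.4 and 31.5 FPKM in treated and control PLC/PRF/5. COPG2, the lowest coatomer subunit in every library, was at 4.32 and 5.23 FPKM in treated and control HepG2 and at 2.93 and 2.58 FPKM in treated and control PLC/PRF/5. COPG1 thus took 85.1% of the pair in treated and 85.7% in control HepG2, and 90.02% in treated and 92.4% in control PLC/PRF/5. COPZ1, the zeta subunit, was at 13.7 and 17.4 FPKM in treated and control HepG2 and at 24.0 and 31.5 FPKM in treated and control PLC/PRF/5, with a PLC/PRF/5 ratio of 0.761 (0.714 to 0.810). ARCN1, the delta subunit and the highest coatomer gene in every library, was at 43.9 and 57.4 FPKM in treated and control HepG2 and at 48.3 and 59.5 FPKM in treated and control PLC/PRF/5.

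The ARF GTPases that recruit coatomer differed from each other. ARF1 was at 59.3 and 63.7 FPKM in treated and control HepG2 and at 74.3 and 82.3 FPKM in treated and control PLC/PRF/5. ARF4 was at 58.3 and 74.6 FPKM in treated and control HepG2 and at 54.6 and 63.2 FPKM in treated and control PLC/PRF/5. ARF4 was higher than ARF1 in control HepG2 only, and an antisense gene overlaps 11.6% of its exon bases.

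Cargo receptors were the one role whose median was lower in PLC/PRF/5 than in HepG2, at -0.24 in HepG2 and -0.35 in PLC/PRF/5, and all 9 were below 0 in both lines on the deposited scale. The TMED genes encode p24 proteins, which carry GPI-anchored cargo and bind coat subunits. TMED2 was at 64.2 and 82.2 FPKM in treated and control HepG2 and at 94.5 and 125 FPKM in treated and control PLC/PRF/5, where it was the highest of the 37 and had a ratio of 0.757 (0.733 to 0.782). TMED9 (chromosome 5, 177592158 to 177596124) was at 30.05 and 43.1 FPKM in treated and control HepG2 and at 59.2 and 76.0 FPKM in treated and control PLC/PRF/5. Its ratios were 0.697 (0.650 to 0.747) and 0.779 (0.741 to 0.820). TMED3 was at 1.83 and 2.86 FPKM in treated and control HepG2 and at 3.76 and 5.18 FPKM in treated and control PLC/PRF/5, and at such low levels the added 1 FPKM shrinks its log2 ratios. Its HepG2 ratio of 0.639 (0.579 to 0.705) was the lowest FPKM ratio of the list, and its PLC/PRF/5 ratio was 0.726 (0.676 to 0.779).

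Other p24 genes moved less in HepG2. TMED5 was at 24.2 and 25.3 FPKM in treated and control HepG2 and at 38.7 and 49.5 FPKM in treated and control PLC/PRF/5. TMED7, with which a readthrough gene on the same strand shares 24.0% of exon bases, was at 31.5 and 37.7 FPKM in treated and control HepG2 and at 30.6 and 38.8 FPKM in treated and control PLC/PRF/5. TMED10 was at 52.5 and 54.5 FPKM in treated and control HepG2 and at 45.7 and 51.5 FPKM in treated and control PLC/PRF/5. TMED2 and TMED10 assemble with each other, and the share of TMED2 in the pair was lower in both treated libraries, at 55.0% against 60.1% in HepG2 and 67.4% against 70.8% in PLC/PRF/5.

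LMAN1 and MCFD2 form the receptor that exports coagulation factors V and VIII, and LMAN2 is a lectin of the early secretory pathway. LMAN1 was at 56.9 and 67.3 FPKM in treated and control HepG2 and at 58.3 and 64.3 FPKM in treated and control PLC/PRF/5. MCFD2 was at 63.2 and 67.8 FPKM in treated and control HepG2 and at 45.0 and 45.1 FPKM in treated and control PLC/PRF/5, where its interval included 1 (0.959 to 1.04). LMAN2 was at 47.3 and 50.5 FPKM in treated and control HepG2 and at 79.4 and 103 FPKM in treated and control PLC/PRF/5, with a PLC/PRF/5 ratio of 0.773 (0.738 to 0.810). The LMAN1 ratio was below that of its partner MCFD2 in both lines, at 0.846 against 0.932 in HepG2 and 0.908 against 0.997 in PLC/PRF/5.

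STX5, GOSR2, BET1 and SEC22B are the SNAREs that fuse ER-derived vesicles with the Golgi, and apart from STX5 they were among the lowest genes of the list. SEC22B was at 4.34 and 6.41 FPKM in treated and control HepG2, a ratio of 0.677 (0.616 to 0.745), and at 4.19 and 4.70 FPKM in treated and control PLC/PRF/5, a ratio of 0.891 (0.804 to 0.987). STX5 was at 11.0 and 11.8 FPKM in treated and control HepG2 and at 13.3 and 14.3 FPKM in treated and control PLC/PRF/5. GOSR2 was at 2.76 and 3.50 FPKM in treated and control HepG2 and at 3.08 and 3.58 FPKM in treated and control PLC/PRF/5. BET1 was at 2.75 and 3.28 FPKM in treated and control HepG2 and at 3.13 and 3.44 FPKM in treated and control PLC/PRF/5. The STX5 intervals included 1 in both lines, so its small differences were not detectable at this depth.

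The tethers USO1 (p115), GOLGA2 (GM130) and GOLGB1 (giantin) hold incoming vesicles at the Golgi. On the deposited scale each was lower in both treated libraries than in both controls, against 22.6% of the 9993 genes at 1 FPKM in all libraries. With median-of-ratios scaling the log2 ratio of GOLGB1 was 0.0045 in HepG2 and -0.078 in PLC/PRF/5. USO1 was at 23.1 and 30.7 FPKM in treated and control HepG2 and at 29.4 and 37.1 FPKM in treated and control PLC/PRF/5, with ratios of 0.752 and 0.794. GOLGA2 was at 6.35 and 8.94 FPKM in treated and control HepG2 and at 7.46 and 8.34 FPKM in treated and control PLC/PRF/5. GOLGB1 was at 14.2 and 16.4 FPKM in treated and control HepG2 and at 13.4 and 15.5 FPKM in treated and control PLC/PRF/5, with ratios of 0.865 and 0.866.

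The ratios of the lines were then set against each other. The log2 ratio was lower in HepG2 than in PLC/PRF/5 for 28 of the 37, against 61.2% of 9993 genes, with a median difference of -0.10 against -0.06 over all. By role this was so for 10 of 11 COPII genes, 8 of 10 COPI genes, 3 of 4 SNAREs, all 3 tethers and 4 of 9 cargo receptors. The largest differences were -0.41 for SEC24D, -0.40 for COPA, -0.36 for COPG2 and -0.34 for SEC22B, with counting errors of 0.08, 0.05, 0.18 and 0.10. An interaction leaves no residual degree of freedom, so these differences were not tested. Across the 37 genes the log2 ratios of the lines had a Pearson r of 0.41 and a Spearman rho of 0.35, and over all 9993 genes a Pearson r of 0.33. These are across genes, each line's ratios sharing the depth of its own libraries.

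The genes spread more widely between the untreated lines than with treatment, with an SD of the log2 ratios over the 37 of 0.55 between the lines, 0.17 with treatment in HepG2 and 0.14 in PLC/PRF/5. All measured genes also passed 1.5-fold more often between the lines, with 19.8% higher and 23.7% lower. With treatment 2.33% were higher and 5.54% lower in HepG2, and 4.25% and 5.07% in PLC/PRF/5. Of the 37 genes, 5 were higher by 1.5-fold or more in control HepG2 than in control PLC/PRF/5 (background 19.8%) and 6 were lower (23.7%), with a median log2 ratio of -0.0033 and 19 of 37 below 0 (53.3%). The higher genes were SEC23A, SEC31A, SEC13 and SEC24A of COPII and the COPI gene COPG2, and the lower ones were 5 cargo receptors (LMAN2, TMED5, TMED9, TMED3 and TMED2) and the COPI gene COPZ1. On the TPM scale the split was 8 higher and 4 lower (all genes 27.2% and 18.7%). The median was 0.42 over the COPII genes and -0.60 over the cargo receptors. The ratio of HepG2 to PLC/PRF/5 controls was 2.68 for SEC23A (2.60 to 2.76), 2.06 for SEC31A (1.97 to 2.14) and 1.80 for SEC13 (1.69 to 1.91). It was 0.492 for LMAN2 (0.466 to 0.519), 0.512 for TMED5 (0.494 to 0.532) and 0.551 for COPZ1 (0.513 to 0.591). Without replicates of either line, a difference between these cultures and one between the lines cannot be told apart.

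**Figure D5:**
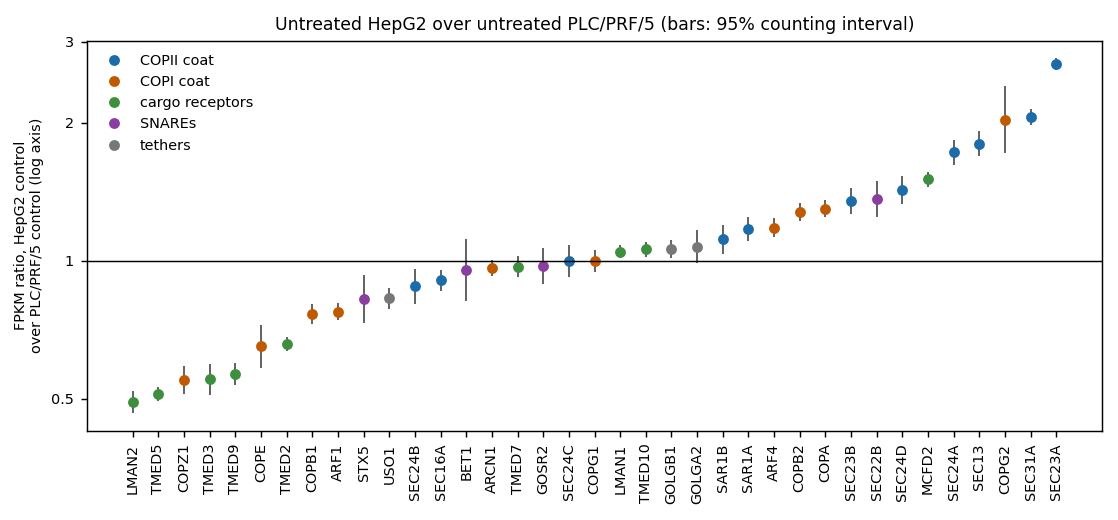
FPKM ratio of the HepG2 control over the PLC/PRF/5 control (log axis) for each gene, in order of the ratio, coloured by role. Bars are 95% counting intervals from 1 library per line. Cargo receptors fill 5 of the 7 lowest places and COPII genes 4 of the 5 highest, from LMAN2 at 0.492 to SEC23A at 2.68.

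Further genes of the same route were read from a list of 77 that holds none of the 37. In HepG2 67 of the 73 measured were below 0 (background 82.4%), with a median of -0.26, and 2 were lower by 1.5-fold or more (5.54%). In PLC/PRF/5 61 of 74 were below 0 (70.9%), with a median of -0.18, and 1 was lower by 1.5-fold (5.07%). In the shared limma fit 0 of 74 were called, and 24 had an unadjusted p under 0.05, all lower (17.5%). A group of 14 held the p24 and ERGIC genes together with KDELR1, KDELR2, KDELR3, LMAN2L, YIF1A, YIF1B and YIPF5. Its medians were -0.36 in HepG2 and -0.30 in PLC/PRF/5, and those of the Rab and TRAPP genes were -0.13 and -0.18. KDELR3 and KDELR2, which encode receptors that return ER chaperones in COPI vesicles, had the lowest log2 ratios of that list in HepG2, at -1.19 and -0.67. KDELR3 was at 3.70 and 9.75 FPKM in treated and control HepG2, a ratio of 0.379 (0.309 to 0.464), and at 4.59 and 7.14 FPKM in treated and control PLC/PRF/5, a ratio of 0.643 (0.524 to 0.785). KDELR2 was at 54.3 and 86.8 FPKM in treated and control HepG2 and at 57.7 and 81.0 FPKM in treated and control PLC/PRF/5.

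The largest of the other log2 ratios on that list were, in HepG2, -0.50 for YIF1B, -0.49 for YIF1A, -0.49 for LMAN2L and -0.46 for GOLGA3. In PLC/PRF/5 they were -0.59 for YIF1A, -0.54 for ERGIC1, -0.47 for YIPF5 and -0.44 for ARF3. YIF1A, YIF1B, YIPF5 and ERGIC1 encode membrane proteins that cycle between the ER and the Golgi. As a point of comparison, 15 ER chaperone genes, many of them known ATF6 targets, had medians of -0.49 in HepG2 and -0.33 in PLC/PRF/5, both lower than those of the coat and tether genes. CALR, the calcium-binding chaperone calreticulin, was the lowest of the 15 in both lines, with a log2 ratio of -1.20 in HepG2 and -0.52 in PLC/PRF/5. HERPUD1, a gene of ER-associated degradation, was the only one above 0, at 0.05 in HepG2 and 0.25 in PLC/PRF/5, and the chaperone calnexin (CANX) was at -0.04 in HepG2 and -0.34 in PLC/PRF/5. Whether the chaperone and the coat genes differ in response was not tested.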

How the data were processed

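RNA of 4 cell cultures was sequenced, 1 library per group. In the shared fit the spread of a gene is its difference in response between the lines, moderated by limma toward a trend over all genes. The p-values of that fit hold no spread between cultures of the same line. The authors deposited FPKM values. Per the submitters' processing notes, TopHat2 and GRCh38 were used; sources used here do not give the counting program or strand use. Whole fragments were recovered from the FPKM values, with GENCODE 29 lengths fitting 75.3% of 32479 genes (tolerance 0.001 fragments) and other whole lengths the rest. Of the 37 genes, 20 had the GENCODE 29 length. For a 1 kb gene, 3 fragments equal 0.140 to 0.179 FPKM. Genes at 1 FPKM or more in either library counted as measured, with a pseudocount of 1 FPKM and a threshold of 1.5-fold. Ratios of FPKM carry exact conditional binomial (Clopper-Pearson) 95% intervals, which cover counting error only. The shared fit used limma 3.58.1 in R 4.3.3 (trend, cell line as block, adjusted p under 0.05) on genes at 1 FPKM in 2 libraries, checked on simulated data. Promoters came from RefSeq.

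Every gene of the list was named. The 6 largest log2 ratios of each comparison have intervals by rule, and further intervals, the pseudogene and overlap remarks and the chosen promoters were added after values were seen. The genes and lists were chosen with earlier results of these data known. The alternatives were other pseudocounts, filters, thresholds, scalings and limma settings. Counts relative to the median of all genes, and the counts at an unadjusted p under other settings, were added after the data were seen. The marker genes COL1A2, KDR and PTPRC were not analysed here.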

Additional observations from a re-analysis of the deposited data

Results flagged for a closer look

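In 3 genes the log2 ratios of the lines had opposite signs, and in each case the difference between lines was not tested, since each rests on 1 library per group. SEC23B had a log2 ratio of -0.05 in HepG2 and 0.11 in PLC/PRF/5, a difference of -0.16. COPG2 had -0.23 in HepG2 and 0.14 in PLC/PRF/5, a difference of -0.36 with a counting error of 0.18. COPE had -0.06 in HepG2 and 0.03 in PLC/PRF/5, a difference of -0.092. The PLC/PRF/5 counting intervals of COPG2 (0.938 to 1.38) and COPE (0.934 to 1.12) included 1. On the TPM scale 37 of the 37 genes, these 3 among them, were below 0 in both lines. With median-of-ratios scaling SEC23B and COPE were above 0 in both lines.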

How the results depend on the processing

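The count of genes past 1.5-fold in HepG2, 1 on the deposited scale, was 2 with a pseudocount of 0.1 FPKM, 0 with one of 5 FPKM, 21 on the TPM scale (24.3% of all genes lower), 0 with median-of-ratios, nuclear-total or quantile scaling (3.57% to 3.62%), 20 at a step of 0.32 (log2) and 0 at 2-fold. Its median of -0.35 was -0.68 on the TPM scale, -0.14 with median of ratios, -0.15 with nuclear totals and -0.15 with quantile normalization. In PLC/PRF/5 the count of 0 was 13 on the TPM scale (20.8%) and 10 at 0.32, and the median of -0.19 was -0.51, -0.078, -0.071 and -0.045 on the same 4 scalings. For HepG2 over PLC/PRF/5 controls the count of 11 was 7 with a pseudocount of 5 FPKM, 20 at 0.32 and 3 at 2-fold. Its median of -0.0033 reversed to 0.066 with genes of at least 5 FPKM, 0.21 on the TPM scale, 0.012 with median of ratios and 0.058 with quantile normalization, and the cause was not tested. The shared fit called 35 of the 37 on the TPM scale, all lower, and 6026 of all genes, against 0 on the deposited scale; the fit without the cell line block also called 0. Sums of FPKM differ between libraries, which is what the TPM scale removes. Of all genes past 1.5-fold, 29.6% were higher in HepG2 on the deposited scale, 5.09% on the TPM scale and 50.2% with median of ratios, and 45.6%, 8.25% and 60.2% in PLC/PRF/5. Leaving out a library leaves no residual degree of freedom, so the value of each line stands in its place. Depth limits genes such as COPG2, whose PLC/PRF/5 interval was 0.938 to 1.38.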
